A study of Mus musculus with 9 samples.

Results

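The 8 genes described here code for the chemokines Cxcl1, Cxcl2, Cxcl3 and Cxcl5, which act on the receptor CXCR2, for that receptor (Cxcr2), for the colony-stimulating factors of granulocytes (Csf3, G-CSF) and of granulocytes and macrophages (Csf2, GM-CSF), and for the receptor of G-CSF (Csf3r). They were chosen by their symbols, each of which occurs once among the 52550 genes of the deposited table. All 8 had counts in at least 1 library, and 7 of the 8, all but Csf2, passed the filter on low counts over the 9 libraries, as did 18492 genes of the table. RNA sequencing was performed on sheets of ear epidermis from wild type C57BL/6 mice (C57BL/6J in the methods) aged 8 weeks, in 3 groups of 3 libraries. VAS + H2O was the control, with Vaseline on the ears for 5 days and water by gavage for 10 days. IMQ + H2O was the model of psoriasis-like dermatitis, in which imiquimod cream, an activator of Toll-like receptor 7, replaced Vaseline. IMQ + XYF received imiquimod in the same way and, by gavage for 10 days, a decoction of 5 herbs (Xiao-Yin-Fang, XYF) at 23.3 mg/g. All groups were thus gavaged, and both groups given imiquimod differ from the control also in the cream that carried it. The methods name male mice and a pair of mice as the source of the sheets, without tying mice to libraries, so p-values measure the spread between these libraries, which may be technical in part.

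Neutrophils follow chemokines with a Glu-Leu-Arg motif, which bind CXCR2 on their surface, out of the blood and into inflamed skin, and clusters of them in the upper epidermis are a known feature of psoriasis. Keratinocytes and myeloid cells release these chemokines in answer to interleukin 1, interleukin 17 and Toll-like receptor signals, largely through NF-kappaB. G-CSF drives the production of neutrophils in the bone marrow and their release through its receptor, and GM-CSF acts on granulocytes, macrophages and dendritic cells.

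In brief, all of the 8 genes but Cxcl5 and Csf2 were higher in each of the 6 imiquimod libraries than in any control library. With each imiquimod group set alone against VAS + H2O, 23.4% of all genes tested were higher without overlap for IMQ + H2O. For IMQ + XYF the share was 25.1%. The share of all genes higher in the 6 imiquimod libraries at once was not computed, so the joint separation has no matching background. Cxcl1 and Cxcr2 varied at most 2.25-fold among the 6 imiquimod libraries. Cxcl2, Cxcl3, Cxcl5, Csf3 and Csf3r differed far more among them, up to 220-fold for Csf3r. Their order cut across the IMQ + H2O and IMQ + XYF groups. No difference between IMQ + XYF and IMQ + H2O passed the test for any of the 8 genes.

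The 4 ligand genes lie in a row on mouse chromosome 5, all on the plus strand (GRCm38, GENCODE M21). Cxcl5 is at chr5:90759360-90761624, Cxcl3 at chr5:90786103-90789600, Cxcl1 at chr5:90891241-90893115 and Cxcl2 at chr5:90903871-90905938, a span of 146579 bases that also holds Ppbp and Cxcl15. Cxcr2 is at chr1:74153989-74161246, plus strand, with Cxcr1 30538 bases beyond it on the minus strand. Csf3r is at chr4:126024550-126044440 (plus), Csf3 at chr11:98701263-98703629 (plus) and Csf2 at chr11:54247271-54249667 (minus). Csf2 is the only one of the 8 with an overlapping gene in that annotation, Gm12223, which is on the opposite strand, and without a known strand setting the reads of these genes cannot be told apart.

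Sequence upstream of the start was available in the RefSeq promoter table (GRCm38.p6) for 6 of the 8 genes, all but Cxcl5 and Csf3. The windows of Cxcl1, Cxcl2 and Cxcl3 are shown because these neighbours were higher in the imiquimod libraries and because their longest common string is a single 11-base string of the NF-kappaB type, given here in capitals. Each window has 110 bases of the plus strand of chromosome 5 and ends just before the GENCODE or RefSeq gene begins, whichever comes first, namely chr5:90891131-90891240 for Cxcl1, chr5:90903761-90903870 for Cxcl2 and chr5:90785991-90786100 for Cxcl3.
Cxcl1: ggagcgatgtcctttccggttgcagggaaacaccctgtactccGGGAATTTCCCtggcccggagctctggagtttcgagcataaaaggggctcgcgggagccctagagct
Cxcl2: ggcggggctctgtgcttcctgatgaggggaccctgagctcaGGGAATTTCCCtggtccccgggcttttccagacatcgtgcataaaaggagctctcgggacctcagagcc
Cxcl3: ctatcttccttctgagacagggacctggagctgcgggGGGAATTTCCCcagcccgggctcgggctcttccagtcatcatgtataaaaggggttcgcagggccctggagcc
The first base of the string is 71 bases before the RefSeq start in Cxcl1, 97 in Cxcl2 and 73 in Cxcl3. Of 32851 windows of the same 250 bases before a start, 14 hold the string on either strand, which is 0.0426% of them. The shorter form GGGNNTTTCC was made from this string by opening inner bases and dropping the last one. Its presence in the windows of Cxcl1, Cxcl2 and Cxcl3 was thus fixed in advance and is no separate finding. It was not found in those of Cxcr2, Csf2 and Csf3r, and 1.41% of all windows hold it on either strand. The letters TATAAA were found before Cxcl3 alone of the 6, and 12.4% of all windows hold them. Of the 14 genes with the string, 10 were matched to the table and 7 were tested. Beside the 3 chemokines these were Zfp84, Hpn, Il16 and Kremen2, named after their values were seen. In IMQ + H2O against VAS + H2O, Il16 fell by 1.02 on the log2 scale (adjusted p = 0.0423 by edgeR). Hpn (log2 fold change -1.08, adjusted p = 0.206), Zfp84 (-0.15, adjusted p = 0.448) and Kremen2 (0.09, adjusted p = 0.677) did not pass. A string match is a description of the letters and not of a bound site.

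Depth was 30298275 to 64771160 counts per library, so 3 counts, taken as the floor of detection, correspond to 0.0463 to 0.0990 CPM (counts per 1000000 counts of the library). Levels are given in CPM scaled by the TMM method, which corrects for differences in library makeup. A gene is called where edgeR's quasi-likelihood test gives an adjusted p (Benjamini-Hochberg over all genes tested) no higher than 0.05 and the log2 fold change is 1 or more in size. The 5 keratinocyte markers summed to 36488 to 60559 CPM and 5 Langerhans cell markers to 544 to 742 CPM, so the defining markers of epidermis were present in every library. Dermal fibroblast markers stood apart in VAS + H2O replicate 2, at 623 CPM in sum against 66.3 and 99.7 in the other controls. They summed to 44.6 to 51.7 CPM in IMQ + H2O and, without overlap, to 69.6 to 201 CPM in IMQ + XYF, where 5 of 6 had an unadjusted p under 0.05 against IMQ + H2O, 0 were called, and the median log2 fold change was 1.45. Cartilage markers summed to 151 to 359 CPM in VAS + H2O, 29.8 to 69.4 CPM in IMQ + H2O and 107 to 165 CPM in IMQ + XYF, and T cell markers to 44.8 to 52.8, 26.0 to 35.2 and 23.8 to 35.2 CPM. Mast cell markers summed to 3.96 to 5.73, 3.97 to 4.13 and 2.74 to 3.75 CPM in these groups, and endothelial (2.85 to 11.3 CPM) and platelet and red cell markers (10.8 to 48.2 CPM) overlapped between the groups. In IMQ + H2O against VAS + H2O, 4 of 4 cartilage, 1 of 5 T cell and 1 of 6 fibroblast markers tested were called lower, beside 4.04% of all genes. In IMQ + XYF against IMQ + H2O, 1 of 4 cartilage markers tested was called, higher, beside 0.0281% of all genes. All 4 had an unadjusted p under 0.05 by edgeR there, with a median log2 fold change of 2.74. The part of all these cells in the results was not tested. Intervals and floors drawn from counts cover counting error only.

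Imiquimod against Vaseline is the comparison of the model with its control. Among 18009 genes tested, 3.64% were called higher and 4.04% lower in IMQ + H2O. Of the 8 genes, 5 were tested, and Cxcl1, Cxcl3, Cxcr2 and Csf3 were called, all higher, while Cxcl2 (adjusted p = 0.0571) was not. The groups did not overlap for 7 of the 8, all but Csf2. These were the 5 tested and also Cxcl5 and Csf3r, which were not tested. Of all genes tested, 23.4% were higher without overlap, a share that leaves out genes not tested. The median log2 fold change of the 5 was 3.77, against -0.03 over all genes tested. Genes at or near 0 in the controls could enter the test only through the imiquimod libraries, so the count and the median describe these 5 and do not support a statement on the list.

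Cxcl1, a chemokine that epithelial and stromal cells make early in inflammation, was at 5.07, 7.22 and 5.68 CPM in the VAS + H2O libraries (replicates 1 to 3), at 54.9, 71.3 and 120.0 CPM in IMQ + H2O and at 94.4, 75.5 and 53.4 CPM in IMQ + XYF. The lowest imiquimod library thus stood far above the highest control, and the imiquimod groups overlapped. Mean levels were 5.99 ± 1.11, 82.1 ± 33.9 and 74.4 ± 20.5 CPM (SD, n = 3 libraries each). Its log2 fold change was 3.77 in IMQ + H2O against VAS + H2O (SE 0.33, 95% interval 2.99 to 4.54, adjusted p = 0.00355 by edgeR), and it rose in each of the 6 fits that left out 1 library, by 3.39 to 4.03 on that scale. In bulk RNA, here and for the genes that follow, more cells of a type and more RNA per cell cannot be told apart.

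Cxcl2, a ligand that macrophages and neutrophils themselves release in quantity, was at 4.12, 7.98 and 5.99 CPM in VAS + H2O, at 12.7, 16.8 and 179 CPM in IMQ + H2O and at 119, 26.2 and 36.9 CPM in IMQ + XYF. IMQ + H2O replicate 3 and IMQ + XYF replicate 1 stood apart, while the other 4 imiquimod libraries were nearer to the controls without reaching them. The mean level was 6.03 ± 1.93 CPM in VAS + H2O and 69.4 ± 94.7 CPM in IMQ + H2O (SD, n = 3 libraries each). The log2 fold change of 3.52 (95% interval 0.98 to 6.06) missed the threshold, with an adjusted p of 0.0571 by edgeR, and DESeq2 gave no adjusted p for it. Without IMQ + H2O replicate 3 it was 1.28 with an adjusted p of 0.0489, so the size of the difference rested on that library and the call turned on it as well. The call was made in 3 of the 6 fits that left out 1 library.

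Cxcl3, the third of these closely related ligands, had 0, 0 and 2 counts in VAS + H2O. It was at 1.49, 7.72 and 72.2 CPM in IMQ + H2O and at 40.3, 3.76 and 16.5 CPM in IMQ + XYF. The gene was near the floor in every control library and above it in every imiquimod library, in the same order of libraries as Cxcl2 at the top. With 2 counts in the controls and 3461 in IMQ + H2O, the ratio of the groups was 1801 (95% counting interval 498 to 14878). The fitted log2 fold change was 10.35 (SE 2.16, adjusted p = 0.0199 by edgeR). It depended on single libraries, at 7.77 without IMQ + H2O replicate 3 and 13.03 without VAS + H2O replicate 3. Its dependence on the prior count of the fit was not tested.

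The call of Cxcl3 held in 3 of the 6 fits that left out 1 library, and was lost without any single control library (adjusted p up to 0.0788). Cxcl2 and Cxcl3 share 126 runs of 50 bases between their transcripts, 5.84% of those of Cxcl2, so some reads could be given to either. In the controls 667 counts of Cxcl2 stood beside 2 of Cxcl3. Neither Cxcl1 nor Cxcl5 shares such a run with the other genes of the CXCR2 and colony-stimulating factor families compared.

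Cxcl5, a ligand that epithelial cells make in other inflamed tissues, had no counts in the 3 control libraries. It had 3, 25 and 82 counts in IMQ + H2O and 73, 0 and 32 in IMQ + XYF, again highest in IMQ + H2O replicate 3 and IMQ + XYF replicate 1. In sum, 110 counts in IMQ + H2O made it at least 38.2-fold higher than the control group at a floor of 3 counts over the group, and IMQ + XYF was at least 30.7-fold higher. It was not tested against VAS + H2O because too few libraries had enough counts.

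Cxcr2, the receptor of all 4 ligands, was at 11.0, 10.6 and 12.6 CPM in VAS + H2O, at 49.2, 50.4 and 80.6 CPM in IMQ + H2O and at 56.1, 60.9 and 54.3 CPM in IMQ + XYF. All 6 imiquimod libraries lay well above the controls, and the IMQ + XYF values lay inside the range of IMQ + H2O. Mean levels were 11.4 ± 1.08, 60.1 ± 17.8 and 57.1 ± 3.42 CPM (SD, n = 3 libraries each). Its log2 fold change in IMQ + H2O was 2.38 (SE 0.22, 95% interval 1.87 to 2.90, adjusted p = 0.00379 by edgeR), and it was called in all 6 fits that left out 1 library, with 2.11 to 2.55.

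Csf3, the ligand of Csf3r, had 0, 0 and 2 counts in VAS + H2O, 14, 28 and 142 in IMQ + H2O, and 66, 7 and 29 in IMQ + XYF. The counts were few throughout, and each imiquimod library was above each control. The ratio of IMQ + H2O to VAS + H2O was 95.8 (95% counting interval 26.1 to 797). The fitted log2 fold change was 6.17 (SE 1.26, adjusted p = 0.0188 by edgeR), and the call held in 4 of 6 fits that left out 1 library. The value was 4.85 without IMQ + H2O replicate 3, which held 142 of the 184 counts of its group, and 8.87 without VAS + H2O replicate 3. Its level in IMQ + H2O was 1.50 ± 1.55 CPM (SD, n = 3 libraries).

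Csf3r, which marks neutrophils and their precursors, had 0, 3 and 3 counts in the controls, 5, 33 and 1642 in IMQ + H2O and 1459, 43 and 214 in IMQ + XYF. The same 2 libraries held most of the counts, and IMQ + H2O replicate 1 was barely above the controls. Summed over libraries, the ratio of IMQ + H2O to VAS + H2O was 291 (95% counting interval 134 to 795). It did not pass the filter in that comparison, and without a filter its log2 fold change of 7.88 had an adjusted p of 0.0672. In a fit of all 9 libraries, which estimates 1 spread for the 3 groups, Csf3r (7.86, adjusted p = 0.0389), Cxcl2 (3.54, adjusted p = 0.0386) and Cxcl5 (8.16, adjusted p = 0.0494) were called by edgeR, which made 7 of the 8.

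Csf2 had 8, 0 and 0 counts in VAS + H2O, 4, 4 and 8 in IMQ + H2O, and 19, 75 and 5 in IMQ + XYF. One IMQ + XYF library, replicate 2, held most of the counts of the gene, at 2.31 CPM, and the other 8 libraries were at 0.298 CPM or less. The library high in Csf2 was not one of those high in Cxcl2, Cxcl3 and Csf3r. The ratio to VAS + H2O was 2.08 in IMQ + H2O (95% counting interval 0.841 to 5.62), so no difference was detectable at this depth, and Csf2 was too low to be tested in any of the 3 comparisons. Without a filter, Csf2 had a log2 fold change of 2.62 in IMQ + XYF against IMQ + H2O, with an adjusted p of 0.882 by edgeR.

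**Figure D1:**
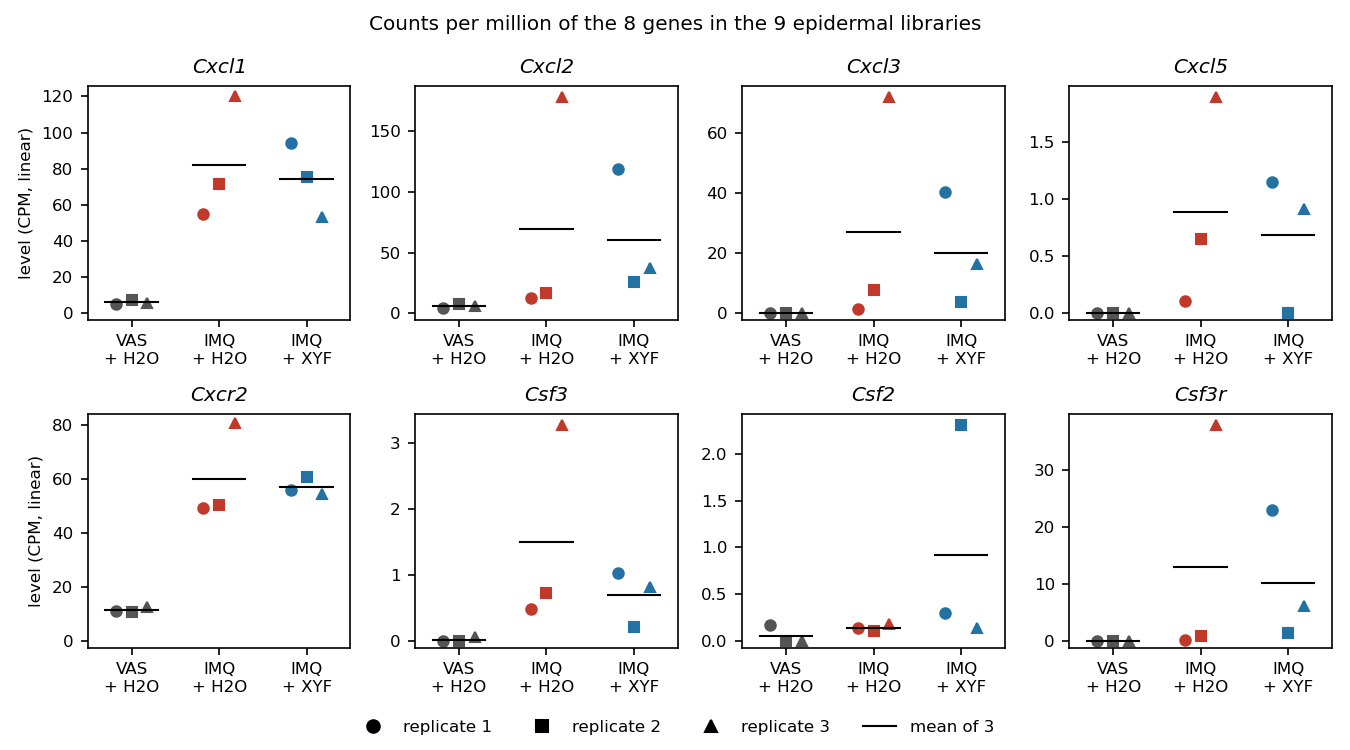
Level of each of the 8 genes in CPM (vertical axis, linear, its own scale in each panel) by group, with 1 point per library, the symbol giving the replicate number and the line the mean of 3. Cxcl1 and Cxcr2 form a compact set of 6 imiquimod points above the controls, whereas Cxcl2, Cxcl3 and Csf3r are set apart by IMQ + H2O replicate 3 and IMQ + XYF replicate 1.

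IMQ + XYF was also compared with VAS + H2O, where 4.58% of 17954 genes tested were called higher and 3.05% lower. It uses the same 3 control libraries as the comparison above. All 5 genes tested, Cxcl1, Cxcl2, Cxcl3, Cxcr2 and Csf3r, were called higher. The groups did not overlap for 6 of the 8, namely these 5 and Csf3, which was not tested. Of all genes tested, 25.1% were higher without overlap, a share that leaves out genes not tested. Log2 fold changes by edgeR were 3.64 for Cxcl1 (adjusted p = 0.000589), 3.34 for Cxcl2 (adjusted p = 0.00932) and 9.95 for Cxcl3 (adjusted p = 0.00350). They were 2.32 for Cxcr2 (adjusted p = 0.000135) and 7.50 for Csf3r (adjusted p = 0.00930). These 5 calls held in all 6 fits that left out 1 library. Cxcl3 (2 control counts) and Csf3r (6) could pass the filter here only through the IMQ + XYF libraries, so that all 5 were called does not support a statement on the list. Csf3, which did not pass the filter here, had a ratio of 44.8 (95% counting interval 12.1 to 375), and was called by edgeR without a filter (5.10, adjusted p = 0.0174) and in the fit of all 9 libraries (5.09, adjusted p = 0.0193). Csf2 had a ratio of 10.9 (95% counting interval 5.30 to 25.9), with 75 of 99 counts in 1 library.

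What the decoction changed under imiquimod is asked by setting IMQ + XYF against IMQ + H2O, groups that each entered the comparisons above. The test called 0.0281% of 17793 genes tested, 5 genes, and none of the 7 of the 8 genes tested by edgeR. No gene of the 7 had an unadjusted p under 0.05 (the lowest was 0.229, for Csf3), DESeq2 called 0 of them as well, and the adjusted p by edgeR was 0.9999 for each. None of the 8 was without overlap between the groups, where 10.7% of the genes tested were. For Cxcr2 the log2 fold change was -0.07 with a 95% interval of -0.53 to 0.39, and for Cxcl1 it was -0.14 with an interval of -0.90 to 0.62, so these were the bounds on a difference in either direction.

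For the others the intervals were wide. They were -2.72 to 2.35 for Cxcl2, -3.50 to 2.67 for Cxcl3 and -3.17 to 2.47 for Cxcl5. They reached from -3.05 to 0.87 for Csf3 and from -4.23 to 3.53 for Csf3r. The point estimates of Cxcl2 (-0.18), Cxcl3 (-0.42), Cxcl5 (-0.35) and Csf3r (-0.35) were smaller than their standard errors, and that of Csf3 was -1.09 (SE 0.83). Differences of several-fold in either direction lay within these intervals, except a rise of Csf3.

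The direction of these estimates turned on 1 library. Without IMQ + H2O replicate 3 all 7 were above 0, at 4.24 for Csf3r (adjusted p = 0.470), 2.12 for Cxcl3 (adjusted p = 0.566) and 2.05 for Cxcl2 (adjusted p = 0.467). Without IMQ + XYF replicate 1 they were -1.82 for Csf3r, -1.43 for Cxcl3 and -1.14 for Cxcl2. With both of these libraries left out, an alternative chosen after seeing the data, Cxcr2 stood at 0.21, Cxcl1 at 0.03, Csf3 at -0.22 and Csf3r at 2.79, and none was called.

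**Figure D2:**
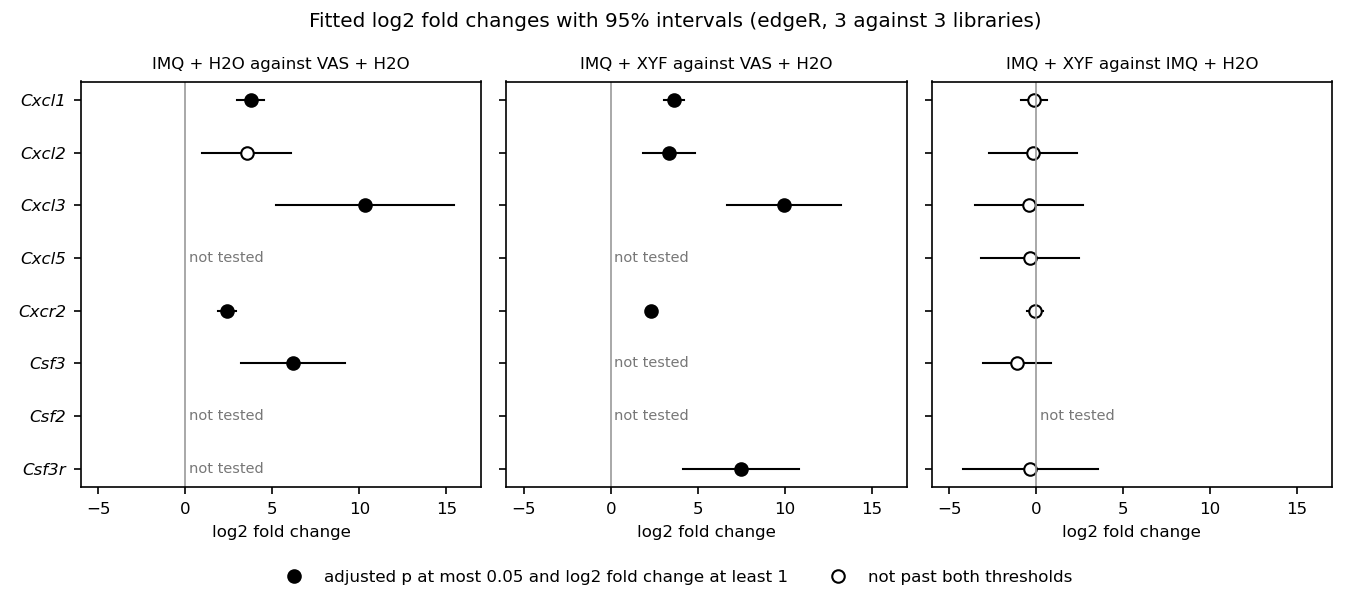
Fitted log2 fold change (horizontal axis) of each gene in the 3 comparisons, with bars for the 95% interval, filled circles for calls and open circles for differences not past both thresholds. Intervals in the right panel all include 0 and are narrow for Cxcr2 and Cxcl1 alone, and genes that did not pass the filter are marked as not tested.

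**Figure D3:**
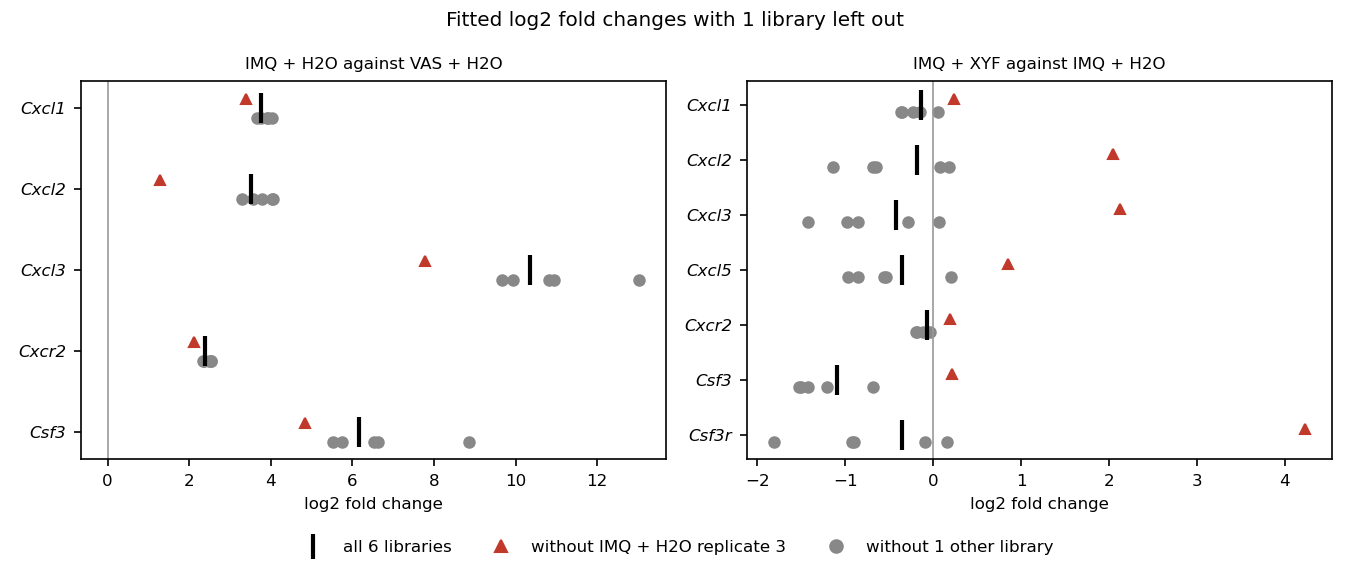
Log2 fold change (horizontal axis) of the genes tested, with all 6 libraries (black bar), without IMQ + H2O replicate 3 (red triangle) and without each other library in turn (grey circles), for imiquimod against Vaseline (left) and IMQ + XYF against IMQ + H2O (right). In the right panel the red triangles of all 7 genes lie above 0, from 0.20 for Cxcr2 to 4.24 for Csf3r.

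Among the 6 imiquimod libraries, the highest level was 2.25 times the lowest for Cxcl1 and 1.64 times for Cxcr2. The median of 15937 genes with at least 10 counts in each of these libraries was 1.42, with 84.9% of them at or below the value of Cxcl1 and 66.1% at or below that of Cxcr2. The same measure was 14.1 for Cxcl2, above or equal to 99.8% of these genes, and 48.6 for Cxcl3, above or equal to 99.9%. Csf3, with a ratio of 15.2, and Csf3r, with 220, had fewer than 10 counts in a library and were not ranked. Cxcl2, Cxcl3, Cxcl5, Csf3 and Csf3r were each highest in IMQ + H2O replicate 3, then in IMQ + XYF replicate 1 and then in IMQ + XYF replicate 3. Cxcr2 and Cxcl1 were also highest in IMQ + H2O replicate 3, but Cxcl1 was lowest in IMQ + XYF replicate 3.

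Of a list of 25 neutrophil markers, 11 had counts in each control library. A group of 18, split off after their values were seen for a mean under 1 CPM in VAS + H2O, summed to 0.631 to 0.782 CPM in the controls. In IMQ + H2O they summed to 0.863, 4.55 and 94.2 CPM, and in IMQ + XYF to 50.9, 3.70 and 17.6 CPM (replicates 1 to 3). These 18 thus had the library order of Cxcl3, with IMQ + H2O replicate 1 close to the controls. The other 7 did not, summing to 280, 381 and 2133 CPM in IMQ + H2O and to 732, 911 and 575 CPM in IMQ + XYF, with 82.5 to 97.1 CPM in the controls. Retnlg, a resistin-like gene of neutrophils, had no counts in the controls and 0, 15 and 662 in IMQ + H2O, and 364, 8 and 77 in IMQ + XYF.

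Ly6g, the surface marker by which mouse neutrophils are sorted, had 22 counts in IMQ + H2O replicate 3, 16 in IMQ + XYF replicate 1, 3 in IMQ + XYF replicate 3 and 0 elsewhere. Genes of neutrophil precursors were at or near 0, with no count of Elane in any library, at most 9 of Mpo, 7 of Camp, 21 of Ngp and 5 of Ltf. The part that neutrophils had in the levels of Cxcl2, Cxcl3, Csf3 and Csf3r was not tested.

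Over all 25 markers, the sums were 83.2 to 97.8 CPM in VAS + H2O, 281, 386 and 2227 CPM in IMQ + H2O and 783, 915 and 592 CPM in IMQ + XYF. Most of each sum under imiquimod came from S100a8 and S100a9, calgranulins that inflamed keratinocytes also express. Both rose in IMQ + H2O, with log2 fold changes of 8.09 (adjusted p = 0.00890) and 6.91 (adjusted p = 0.00978) by edgeR. They were the only 2 called of 8 markers tested, where 3.64% of all genes were called higher, and 5 were called without IMQ + H2O replicate 1. The rest of those tested, named after their values were seen, went in both directions. Log2 fold changes were 2.44 for Itgam, 0.94 for Padi4, 0.35 for Ncf4, 0.02 for Ncf1, -0.13 for Mmp9 and -0.48 for Il1r2. The levels of S100a8 and S100a9 did not follow the order of Csf3r, with S100a8 second highest in IMQ + XYF replicate 2, at 410 CPM. Monocyte and macrophage markers summed to 10.6 to 12.5 CPM in the controls, to 16.1, 20.4 and 83.0 CPM in IMQ + H2O and to 59.5, 14.2 and 27.5 CPM in IMQ + XYF, which put the same 2 libraries on top. Langerhans, T cell and mast cell markers did not have this order.

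**Figure D4:**
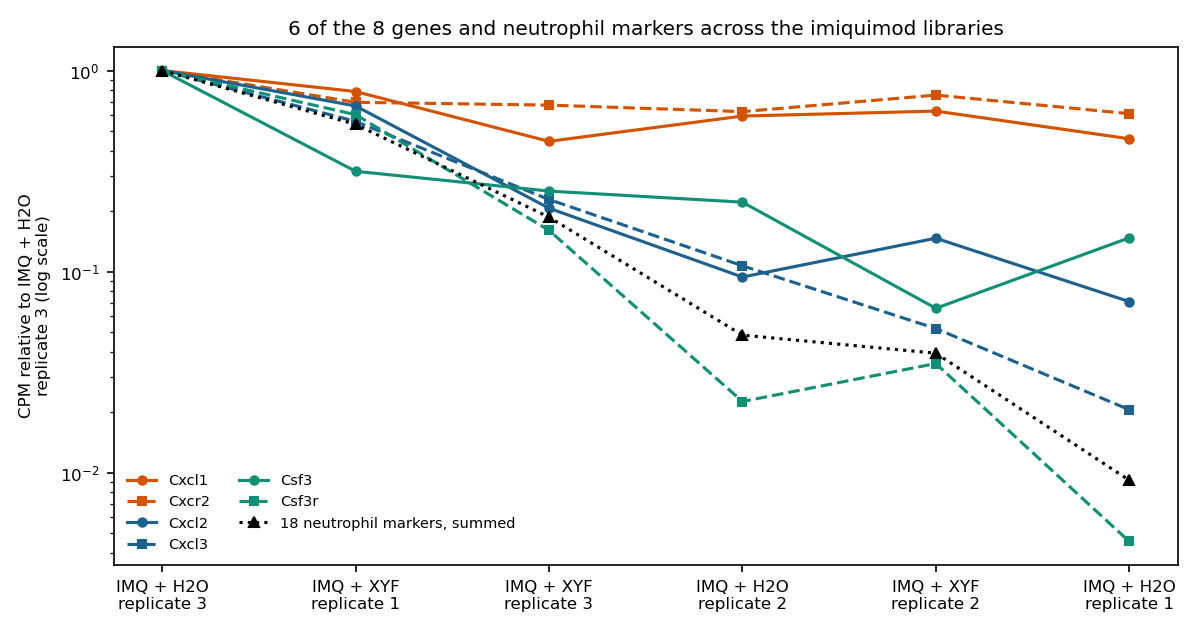
Level of 6 of the genes and the summed level of 18 neutrophil markers in the 6 imiquimod libraries, each relative to its value in IMQ + H2O replicate 3 (vertical axis, log scale), with libraries along the horizontal axis in the order of Cxcl3. Cxcl1 and Cxcr2 (orange) stay near the top, while Cxcl2, Cxcl3, Csf3r and the markers are each lowest in IMQ + H2O replicate 1. There the markers were at 0.863 CPM and Csf3r at 0.173 CPM. Cxcl2 and Csf3r are higher in IMQ + XYF replicate 2 than in IMQ + H2O replicate 2, unlike Cxcl3 and the markers.

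Levels of different genes were set side by side per kilobase of exon. In VAS + H2O, Cxcr2 (3.75 ± 0.353 CPM per kilobase, SD, n = 3), Cxcl1 (3.19 ± 0.590) and Cxcl2 (2.92 ± 0.932) led, with ranges that overlapped from each to the next. The other 5 were at 0.0705 CPM per kilobase or less in the mean, and the step from Cxcl2 to these was the only one without overlap. In IMQ + H2O the order was Cxcl1 (43.8 ± 18.1 CPM per kilobase), Cxcl2 (33.6 ± 45.8), Cxcr2 (19.7 ± 5.85), Cxcl3 (7.76 ± 11.2), Csf3r (3.60 ± 6.00), Csf3 (1.06 ± 1.10), Cxcl5 (0.474 ± 0.494) and Csf2 (0.178 ± 0.0509), and no neighbours in it were separated by their ranges. In IMQ + XYF the first 5 had the same order, and only Cxcr2 (18.7 ± 1.12 CPM per kilobase) and Cxcl3 (5.77 ± 5.31) did not overlap. Within single libraries, Cxcl2 exceeded Cxcl1 in IMQ + H2O replicate 3 and IMQ + XYF replicate 1 alone of the 6.

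Of 14 other ligands and receptors of these families, 8 were tested in IMQ + H2O against VAS + H2O. By edgeR 1 was called, Cxcr1, beside 3.64% of all genes called higher. The median log2 fold change of the 8 tested was 0.68, against -0.03 over all genes. Cxcr1 could pass the filter only through the imiquimod libraries, so this count does not support a statement on the list. Cxcr1, a second receptor on neutrophils for some of these ligands, had no counts in the controls, 14, 32 and 77 in IMQ + H2O and 71, 32 and 16 in IMQ + XYF. It was thus at least 42.7-fold higher in IMQ + H2O and at least 34.8-fold higher in IMQ + XYF, at a floor of 3 counts over the control group. The library order of Cxcr1 was that of Cxcl1 and not that of Csf3r. Csf1, the macrophage growth factor, had an adjusted p of 0.0368 with a log2 fold change of 0.41, below the fold threshold.

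The receptor chains of GM-CSF had log2 fold changes of 0.69 for Csf2ra (adjusted p = 0.218), 1.05 for Csf2rb (adjusted p = 0.0647) and 0.73 for Csf2rb2 (adjusted p = 0.0645) by edgeR, and none was called. Csf2rb and Csf2rb2 are near-identical in part, with 892 shared runs of 50 bases (12.3% of those of Csf2rb), so their counts are uncertain. Csf1r (-0.10), its ligand Il34 (-0.28) and Il3ra (0.66) did not pass either, with adjusted p of 0.709, 0.307 and 0.126. Ppbp, a platelet ligand of CXCR2, had 0, 3 and 0 counts in VAS + H2O, 0, 0 and 19 in IMQ + H2O and 4, 0 and 0 in IMQ + XYF. Ppbp, Ackr1, Cxcl15, Il3, Il5 and Il5ra were not tested there, and Cxcl15 and Il5ra had no counts in any library. In IMQ + XYF against IMQ + H2O, 0 of 9 of this list tested were called by edgeR, with 0 at an unadjusted p under 0.05, and 0 by DESeq2.

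Among 14 CXC chemokines and receptors outside this axis, 8 were tested in IMQ + H2O against VAS + H2O. By edgeR 2 were called, beside 3.64% of all genes called higher. These were Cxcl9 (log2 fold change 3.42, adjusted p = 0.0206) and Cxcl10 (1.67, adjusted p = 0.0485), both interferon-induced ligands of CXCR3. Cxcl9, with 8 counts over the controls, could pass the filter only through the imiquimod libraries. The median log2 fold change of the 8 was 0.71. Of the 6 fits that left out 1 library, 3 kept the call of Cxcl9 and 0 that of Cxcl10 (adjusted p 0.0569 to 0.117 by edgeR). In IMQ + XYF against VAS + H2O, Cxcl9 was called again (4.35, adjusted p = 0.0124) and Cxcl10 was not (2.11, adjusted p = 0.0752). Cxcl16, a membrane-bound chemokine, had a log2 fold change of 0.96 (adjusted p = 0.0131), just short of the fold threshold, and the scavenger receptor Ackr3 had -0.54 (adjusted p = 0.0522).

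Of 27 inducers of these chemokines and their receptors and transcription factors, 23 were tested and 5 were called higher by edgeR in IMQ + H2O against VAS + H2O, beside 3.64% of all genes (median log2 fold change of the 23 tested 0.59). Without VAS + H2O replicate 2 or IMQ + H2O replicate 3 there were 3. Il1a (log2 fold change 2.15, adjusted p = 0.00575), Il1f9 (interleukin 36 gamma, 1.14, adjusted p = 0.00575) and the adaptor Myd88 (1.004, adjusted p = 0.00709) rose, the last at the fold threshold itself, so that 3 of the 6 fits without 1 library called it. So did Il17c, an epithelial interleukin 17 (3.81, adjusted p = 0.0185), and Il1f6 (interleukin 36 alpha, 1.81, adjusted p = 0.00931), both named after their values were seen. Il17c, with 10 counts over the controls, could pass the filter only through the imiquimod libraries. Cebpb, a transcription factor of acute inflammation, had 0.88 (adjusted p = 0.00372), below the fold threshold. Il17a and Il22 had no counts in any library and Il17f had 3 counts in 1 control library, at the floor. Il1b, named like these after its values were seen, was at 3.49, 5.85 and 3.04 CPM in VAS + H2O, 7.39, 14.3 and 193 CPM in IMQ + H2O and 119, 11.8 and 39.5 CPM in IMQ + XYF, in the library order of Cxcl3 (log2 fold change 4.11, adjusted p = 0.0591).

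Transcripts of the CXCR2 ligands are short-lived, and 9 regulators of transcript decay were measured. All 9 were tested, with a median log2 fold change of 0.24, and 2 were called higher in IMQ + H2O, both of the Regnase family of RNases, Zc3h12a (log2 fold change 1.72, adjusted p = 0.00958) and Zc3h12c (1.10, adjusted p = 0.0256), of which the latter was called in 2 of the 6 fits that left out 1 library. Of all genes, 3.64% were called higher. Hnrnpd (0.40, adjusted p = 0.0300) and Elavl1 (0.35, adjusted p = 0.0710) were below the fold threshold. Zc3h12a was at 50.5, 96.1 and 98.7 CPM in VAS + H2O and at 189 to 302 CPM in the 6 imiquimod libraries. Its highest and lowest imiquimod libraries were 1.60-fold apart, close to the 1.64 of Cxcr2.

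Of 22 signaling genes downstream of the receptors, 20 were tested and 0 were called by edgeR in IMQ + H2O against VAS + H2O, and 0 by DESeq2, while 5 had an unadjusted p under 0.05, as did 6823 of all 18009 genes tested. The median log2 fold change of the 20 was 0.26. Stat3, which carries the G-CSF signal, had a log2 fold change of 0.76 (adjusted p = 0.00806) and the receptor kinase Grk6 had 0.50 (adjusted p = 0.0272), both below the fold threshold. The phosphatase Ptpn6 had -0.24 (adjusted p = 0.105). In IMQ + XYF against VAS + H2O, 4.58% of all genes tested were called higher. There, 6 of 23 inducers, 2 of 9 decay regulators, 1 of 20 signaling genes and 5 of 11 neutrophil markers were called higher. Leaving out 1 library gave 4 to 6 inducers, 1 to 2 decay regulators, 0 to 1 signaling genes and 4 to 10 neutrophil markers. The 10 markers were called without IMQ + XYF replicate 2. The neutrophil count is a description, since called markers such as Trem1 (0 counts in the controls) and Clec4d (5), named after their values were seen, could pass the filter only through the IMQ + XYF libraries. In IMQ + XYF against IMQ + H2O no gene of the inducer, decay, signaling or neutrophil lists was called by edgeR or DESeq2, and at an unadjusted p under 0.05 there were 2 of 23 inducers and 0 of the other lists, beside 966 of all 17793 genes tested.

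The genes most alike in pattern were sought among 18492 genes by Pearson correlation of log2 CPM over the 9 libraries, as a description over libraries that share the contrast of imiquimod with Vaseline. For Csf3r these were Lilrb4a (ENSMUSG00000112148, r = 0.998), Acod1 (0.996) and Lilr4b (0.991), genes of activated myeloid cells. For Cxcl2 they were Lilrb4a (0.987), Csf3r (0.986) and Basp1 (0.983). For Cxcl1 the first was Cxcr1 (0.994), followed by Gda (0.990) and Ext1 (0.990), and for Cxcr2 they were Mars (0.997), Ston2 (0.997) and 2610528A11Rik (0.997). For Cxcl3 they were Sarnp (0.997), Timm17a (0.995) and Nrg1 (0.991), for Cxcl5 Ifi202b (0.988), Clcf1 (0.982) and Itgb1 (0.969), and for Csf3 Isy1 (0.987), Pym1 (0.984) and Prrg4 (0.983). Cxcl2 and Csf3r thus had the same nearest gene, and Cxcl1 and Cxcr2 were not among the 3 nearest of any other of the 8.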

How the data were processed

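RNA-seq was performed on 9 libraries of ear epidermis, and groups were taken from the labels. The authors deposited raw read counts per gene (GRCm38, Ensembl identifiers with symbols). Reads were aligned with STAR per the labels, the counting tool is not given in the sources used here, and the strand setting is not clear from them, since the labels call the libraries strand-specific and the kit named in the methods does not mark strand. Total counts were 30298275 to 64771160 per library, and their number sets the precision of low genes. Chi-square statistics per gene between replicates of 1 group were 26.1 to 82.7, so replicates differed beyond sampling noise. The pairs with IMQ + H2O replicate 3 were highest, at 82.7 and 78.1, against at most 46.7 for any other pair.

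Each comparison was fitted on its 6 libraries with edgeR 4.0.16 (R 4.3.3) after filterByExpr, with TMM normalization and the quasi-likelihood F-test, and p-values were adjusted by Benjamini-Hochberg over all genes tested. Genes were called at an adjusted p of 0.05 or less and a log2 fold change of 1 or more in size. Standard errors were the log2 fold change over the square root of F. Log2 CPM used a prior count of 2. CPM in the text used the TMM factors of the 9 libraries. An exact permutation test of 3 against 3 libraries cannot go below p = 0.1 and was not used. The fits were run on simulated data with 1 fixed spread for all genes, far below that of Cxcl2, Cxcl3 and Csf3r here. That run therefore does not bear on the calls of these genes. Ratios against a control group with few counts are ratios of summed counts over effective library sizes with exact binomial 95% intervals, and 0 counts were set to a floor of 3 over the group.

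The 8 genes and all lists were chosen with earlier results of these data known. Named genes were the 8, the 14 other family members, up to 4 genes of lowest p per list, stated neutrophil markers and the 3 genes most alike in pattern to each of the 8, and others are marked as named after their values were seen. The result of 1 gene that the rule names is not reported here. Alternatives were DESeq2 1.42.0, other size factors (RLE), no filter, a minimum of 10 counts per library, 1 fit of the 9 libraries, a replicate block, the adjusted p alone, glmTreat and leaving out each library. Positions came from GENCODE M21, and promoter sequences from RefSeq (GRCm38.p6).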

Additional observations from a re-analysis of the deposited data

How the results depend on the processing

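With 3 libraries a group, depth limited Csf2, Cxcl5, Csf3 and the control values of Cxcl3 and Csf3r. In IMQ + H2O against VAS + H2O, 1383 genes were called in all, 3986 by the adjusted p alone, 65 by glmTreat against a log2 fold change of 1 and 711 to 1314 without 1 library. Of the 8 genes, 4 were called, but 7 with all 9 libraries in 1 fit, 2 by glmTreat (Cxcl1 and Cxcr2) and 2 to 7 without 1 library, with 2 without VAS + H2O replicate 1 or 2 and 7 without IMQ + H2O replicate 1. In IMQ + XYF against VAS + H2O, 1371 genes were called, 5152 by the adjusted p alone and 162 by glmTreat, and of the 8 genes 5 were called, 3 by glmTreat and 3 with at least 10 counts in every library. In IMQ + XYF against IMQ + H2O, 5 genes were called, 129 by DESeq2, 1 with all 9 libraries in 1 fit, 0 by glmTreat, 0 with the replicate block, 0 to 5 without 1 library and 0 without both libraries highest in Csf3r. None of these was one of the 8 under any alternative run. Same-numbered libraries had correlations of -0.13 to 0.11 between their deviations, so they share a number and no shown pairing. With the replicate block, 1100 and 1113 genes and 4 and 5 of the 8 were called against VAS + H2O, and in IMQ + XYF against IMQ + H2O the log2 fold changes of Cxcl2 (0.54) and Csf3r (0.87) turned positive. Leaving out both libraries highest in Csf3r, chosen after seeing the data, gave 0.028 for Cxcl1, 1.10 for Cxcl2, 1.12 for Cxcl3, 0.24 for Cxcl5, 0.21 for Cxcr2 and 2.79 for Csf3r. Leaving out 1 library moved these differences from -0.36 to 0.24 for Cxcl1, -1.14 to 2.05 for Cxcl2, -1.43 to 2.12 for Cxcl3, -0.96 to 0.85 for Cxcl5, -0.20 to 0.20 for Cxcr2, -1.53 to 0.21 for Csf3 and -1.82 to 4.24 for Csf3r, each highest without IMQ + H2O replicate 3. Csf1r in IMQ + H2O against VAS + H2O ranged from -0.19 to 0.057. The cause of these turns was not tested. Under the other alternatives run, the counts of all genes called and of the 8 called stayed within 1.5 times of their value.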
